A study of Mus musculus with 6 samples.

Results

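The tripartite motif (TRIM) family was taken as the gene entries whose symbol begins with Trim followed by a number, which gave 57 of the 25711 entries of a gene table from mouse macrophages. The RNA came from wild-type macrophages derived from bone marrow. The labels give 3 libraries of control cells at 24 h and 3 of cells treated for 24 h with CCL7, a chemokine, at 500 ng/ml. Every library carried the same genotype and cell label, and no mouse strain, sex, age or vehicle was given in the labels. The comparison bears on how CCL7 relates to macrophage polarization, the question named for the series.

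TRIM proteins share an amino-terminal module of a RING finger, 1 or a pair of B-box zinc fingers and a coiled coil, and differ mainly in the domain at the carboxyl terminus. The RING finger takes ubiquitin, SUMO or ISG15 from an E2 enzyme and passes it to a substrate, and the carboxyl-terminal domain chooses that substrate. In macrophages the family is known for restricting viruses, for tuning the RIG-I, STING and Toll-like receptor pathways and for selective autophagy, while a subgroup with PHD and bromodomains works on chromatin. Many members with a SPRY domain are induced by interferon, and several of them stand in gene clusters that differ between rodents and primates.

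The libraries held 34860523 to 51161400 counts, and TRIM genes took 0.196% to 0.218% of them. The labels do not say whether replicates are separate cultures or mice. The p-values therefore weigh the group difference only against how far these samples scatter within a group, and that scatter could be technical. CCL7 replicate 2 stood apart: its counts differed from those of the other CCL7 libraries with a chi-square per degree of freedom of 35.3 and 37.1, against 4.33 to 8.23 for the other pairs within a group. Over all tested genes its median absolute deviation from the group mean was 0.09 on the log2 scale, against 0.03 to 0.06 in the other libraries. Over tested TRIM genes it was 0.0451, close to the 0.0438 and 0.0434 of CCL7 replicates 1 and 3, with 0.0322 to 0.0392 in controls. All 8 macrophage markers had a mean FPKM of at least 1 (FPKM is the count scaled by gene length and library total), with a summed FPKM of 2191 to 2264 in controls and 3913 to 3988 with CCL7. The extraction protocol also names primary chondrocytes, and the 4 chondrocyte markers in the table summed to 0.901 to 1.14 in controls and 0.409 to 0.436 with CCL7, with Acan and Col2a1 at 0 counts in controls and 4 each with CCL7. Matn1 fell from 145 to 5 counts over the 3 libraries of a group and was called lower (-4.76), and Comp had 132 and 164. The 6 neutrophil markers summed to 1.19 to 1.56 and 14.2 to 21.1, and over the 3 libraries of each group S100a8 had 102 and 1538 counts, Camp 10 and 158 and S100a9 0 and 10, while Ly6g had 0 and 2 and Elane 2 and 0. S100a8 and Camp were called higher, by 3.90 and 3.97 on the log2 scale. Lymphocyte markers summed to 1.67 to 2.00 and 0.926 to 1.0, and dendritic, stromal and erythroid markers to at most 0.670 in any library. Over the 3 libraries of a group, the dendritic markers Xcr1 (12 and 131 counts) and Ccr9 (20 and 73) were called higher, by 3.43 and 1.89. Clec9a (54 and 16 counts) was called lower (-1.69), and Zbtb46, Flt3 and Siglech were not called. Among stromal markers Dcn was called higher (4.14). The part of these other cell types in the TRIM changes was not tested. In bulk RNA, fewer cells of a type and less RNA per cell cannot be told apart.

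Of the 57 genes, 35 averaged at least 1 FPKM over the 6 libraries and entered edgeR's quasi-likelihood test on counts with TMM scaling. With CCL7, 14 of these 35 were higher, 14 were lower and 7 did not pass the adjusted p threshold of 0.05. Over all 11143 genes tested, 33.9% were higher and 35.2% lower, 69.1% in all. The groups did not overlap in scaled log2 counts at 30 of the 35 genes, 15 in each direction, against 73.7% of all genes. The share of TRIM genes called, 80%, therefore lay near a high background. The median log2 change was 0.05, beside -0.01 over all genes, and the median absolute log2 change was 0.34, beside 0.36. Of the 28 called TRIM genes 15 moved by less than 1.5-fold, which is 53.6%, beside 55.4% of all called genes. The called genes at least 2-fold higher were 5 of the 35, where 7.71% of all genes were. Those at least 2-fold lower were also 5 of the 35, where 8.69% of all genes were. Both shares lay above those of all genes, but each rests on 5 genes, and Trim30a, Trim30c and Trim30d among the higher are close copies. Without CCL7 replicate 2 the test called 16 higher and 14 lower.

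The scaling matters for the small changes. With the deposited library totals in place of TMM, the median log2 change over all genes moved from -0.01 to -0.26, 7 TRIM genes were higher and 18 lower, and the background was 20.5% higher and 53.5% lower. The 7 that were higher under both scalings were Trim30c, Trim30d, Trim13, Trim30a, Trim46, Trim34a and Trim3. Every one of the 14 genes called lower with TMM was also called lower with the deposited totals. That scaling moves every tested TRIM gene towards lower values, so that these 14 stayed lower is no separate check. Below, changes are log2 of CCL7 over control with TMM, ± the standard error (SE, n = 3 per group), which comes from the spread of log2 counts in the libraries themselves, and adjusted p is edgeR's over all genes tested. Levels are FPKM as deposited, which uses the deposited totals.

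**Figure D1:**
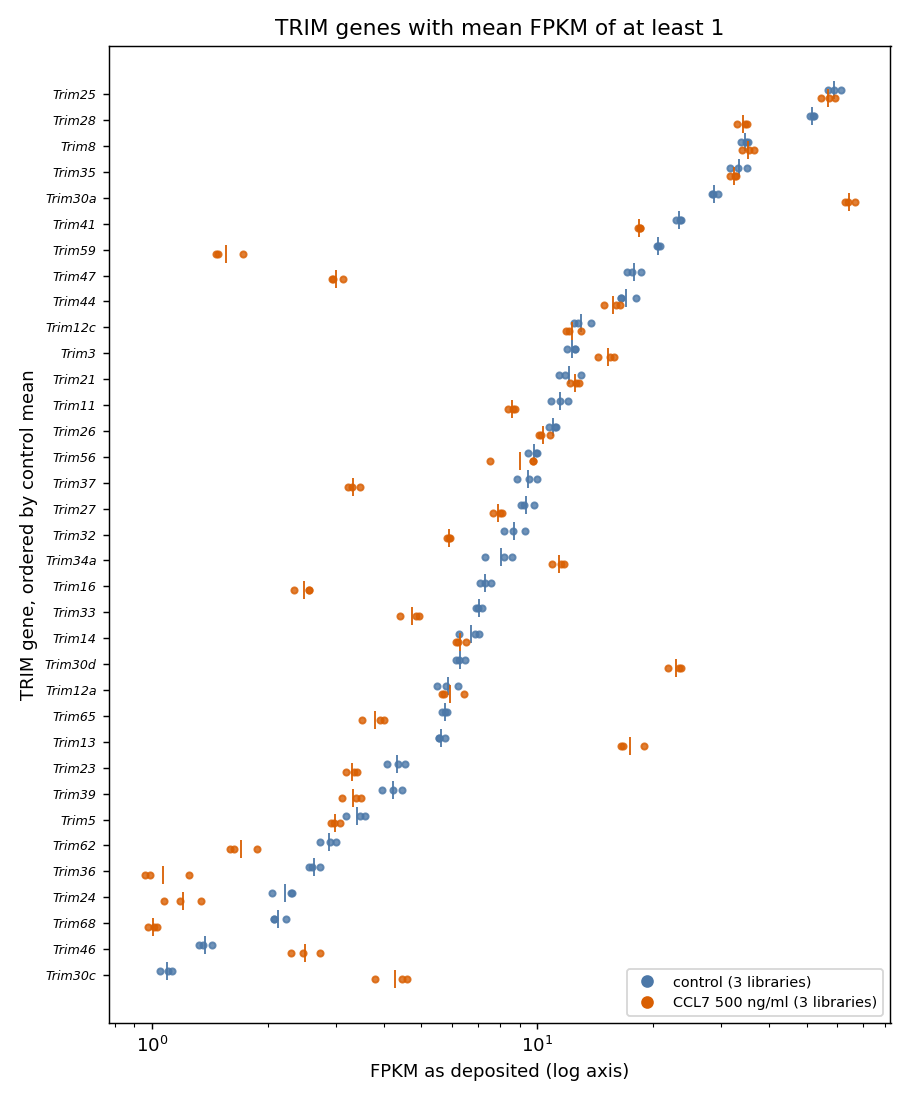
Deposited FPKM (horizontal log axis) of the 35 tested TRIM genes, ordered from top to bottom by the control mean. Each point is 1 library, blue for control and orange for CCL7, and the vertical ticks are group means. Trim25 heads the control order, Trim30a passes it with CCL7, and Trim59 and Trim47 show the widest gaps to lower values.

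The 57 genes together summed to an FPKM of 457 to 467 in control libraries and 438 to 457 in CCL7 libraries, so the total moved little while its makeup changed. In controls Trim25 was the most abundant TRIM transcript per length, at 59.0 ± 2.22 FPKM (mean ± SD, n = 3), followed by Trim28, Trim8, Trim35 and Trim30a. With CCL7 Trim30a ranked first, at 64.6 ± 1.97 FPKM, followed by Trim25, Trim8, Trim28 and Trim35. As a share of the family's summed FPKM, which does not depend on the library scaling, Trim30a went from 6.21 ± 0.189% to 14.5 ± 0.137%. Trim28 went from 11.1 ± 0.0483% to 7.66 ± 0.242%, Trim59 from 4.44 ± 0.0876% to 0.348 ± 0.0251%, and Trim47 from 3.84 ± 0.206% to 0.672 ± 0.0290%. Trim25 held 12.7 ± 0.368% and 12.7 ± 0.266%.

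The SPRY class was the largest, with 35 genes by symbol number, of which 21 were tested, 10 were higher, 7 lower and 4 did not pass. These are 47.6% higher and 33.3% lower, beside 33.9% and 35.2% of all tested genes. With the deposited totals 4 were higher and 10 lower, where 20.5% and 53.5% of all tested genes were. The largest rises, those of Trim30c and Trim30d, were in the Trim30 group. Trim30a is known in mouse to restrain Toll-like receptor signalling by promoting loss of the adaptors TAB2 and TAB3, and Trim30b, Trim30c and Trim30d are its neighbours and close copies. The first coding bases of the 4 copies are shown because their likeness decides how well reads can be told apart. They come from GENCODE M21 transcripts (build GRCm38, chromosome 7, minus strand), bases 1 to 120 of the longest coding sequence of each gene, with capitals where a copy differs from Trim30a in an alignment of the whole coding sequences.
Trim30a: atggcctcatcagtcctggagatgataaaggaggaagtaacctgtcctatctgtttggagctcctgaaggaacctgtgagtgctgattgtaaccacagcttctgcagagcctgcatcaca
Trim30b: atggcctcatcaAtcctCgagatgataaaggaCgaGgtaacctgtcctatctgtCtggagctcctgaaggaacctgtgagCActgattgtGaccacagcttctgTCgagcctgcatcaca
Trim30c: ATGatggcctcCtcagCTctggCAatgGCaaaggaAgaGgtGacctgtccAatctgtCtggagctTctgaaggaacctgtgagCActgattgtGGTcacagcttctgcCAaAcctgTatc
Trim30d: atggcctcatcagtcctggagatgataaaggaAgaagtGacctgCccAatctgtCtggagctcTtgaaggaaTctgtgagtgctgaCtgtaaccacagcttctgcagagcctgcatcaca
Within these 120 bases Trim30b, Trim30c and Trim30d had 10, 25 and 8 letters that differed from Trim30a. Over the aligned coding sequence, Trim30b was 88.3% identical to Trim30a over 606 bases, Trim30c 83.5% over 1487 bases and Trim30d 90.2% over 1488 bases. Of the 50-base words in the transcripts, 5.98% of those of Trim30a and 7.49% of those of Trim30d also occurred in another gene, mostly in each other. How the authors' counting treated such reads is not given in the sources used here.

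Trim30a (ENSMUSG00000030921, chromosome 7, 104409025 to 104465193, minus strand) had FPKM of 28.4, 28.5 and 29.4 in control replicates 1 to 3 and 66.7, 62.9 and 64.1 in CCL7 replicates 1 to 3. Every CCL7 library thus lay above every control, and the log2 change was 1.40 ± 0.03 (adjusted p = 1.43e-09), or 2.65-fold. Trim30d (ENSMUSG00000057596, chromosome 7, 104470014 to 104507849, minus strand) had FPKM of 6.26, 6.5 and 6.14 in controls and 23.6, 23.3 and 21.9 with CCL7. It changed by 2.10 ± 0.04 (adjusted p = 2.52e-10), 4.29-fold, with no overlap between groups. Trim30c (ENSMUSG00000078616, chromosome 7, 104382065 to 104400837, minus strand) had FPKM of 1.05, 1.12 and 1.10 in controls and 4.47, 3.79 and 4.58 with CCL7. The lowest CCL7 library was replicate 2, still well above the controls, and the change was 2.20 ± 0.08 (adjusted p = 1.45e-07), 4.61-fold. Trim30b lay below the filter, with 79, 97 and 72 counts in controls and 188, 166 and 126 with CCL7. It was higher in the fit without the filter, by 0.97 ± 0.14 (adjusted p = 2.62e-07), and its groups did not overlap in raw counts, but limma on log2(FPKM + 0.1) did not call it (0.53, adjusted p = 0.0668). All 4 copies were called higher with TMM, and their control levels ran from 0.286 FPKM for Trim30b to 28.8 FPKM for Trim30a.

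The Trim30 genes stand at the end of a block of 10 TRIM genes within 289 kb of chromosome 7, from Trim6 to Trim30d. Of its 7 tested genes, 6 were higher with TMM, where 33.9% of all tested genes were. With the deposited totals only Trim30a, Trim30c, Trim30d and Trim34a remained higher, where 20.5% of all tested genes were. Trim12a was at 0.02 and Trim12c at -0.08 there. Copies in the block share sequence, so its genes are not independent cases. Trim34a, whose human counterpart acts with TRIM5 against retroviral capsids, had FPKM of 7.30, 8.60 and 8.20 in controls and 11.6, 11.7 and 10.9 with CCL7. Its groups did not overlap, and it changed by 0.74 ± 0.08 (adjusted p = 6.69e-06). That value carries a limit, since 59.7% of the 50-base words of Trim34a also occurred in other genes, mainly Trim34b, whose coding sequence was 98.2% identical over 1451 bases. Trim34b had 26, 19 and 5 counts in controls and 21, 13 and 68 with CCL7, so CCL7 replicate 3 alone was high. Its log2 change of 1.06 ± 0.89 (adjusted p = 0.0104, fit without the filter) was 0.01 without that library.

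Trim12a and Trim12c, mouse relatives of the capsid-binding restriction factor TRIM5 of primates, changed by 0.26 ± 0.08 and 0.16 ± 0.06 with TMM (adjusted p = 0.00911 and 0.0369). Both calls were lost with the deposited totals and with upper-quartile scaling (adjusted p = 0.0658 and 0.297 there). That of Trim12c was also lost without control replicate 1 or 2 or CCL7 replicate 1 (adjusted p = 0.141, 0.118 and 0.119). It was lost too with a mean FPKM of at least 5 (adjusted p = 0.166) and after quantile normalization. Trim5 itself was at 3.41 ± 0.197 FPKM in controls and 2.98 ± 0.0768 with CCL7 and did not pass (0.05 ± 0.05, adjusted p = 0.625; -0.20 and called lower with the deposited totals). Trim5 and Trim12c shared 23.5% and 24.2% of their 50-base words with each other. Trim6, known for making ubiquitin chains that activate the kinase IKK-epsilon, had 64 to 92 counts in controls and 66 to 98 with CCL7 and did not pass without the filter (0.22 ± 0.15, adjusted p = 0.440).

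**Figure D2:**
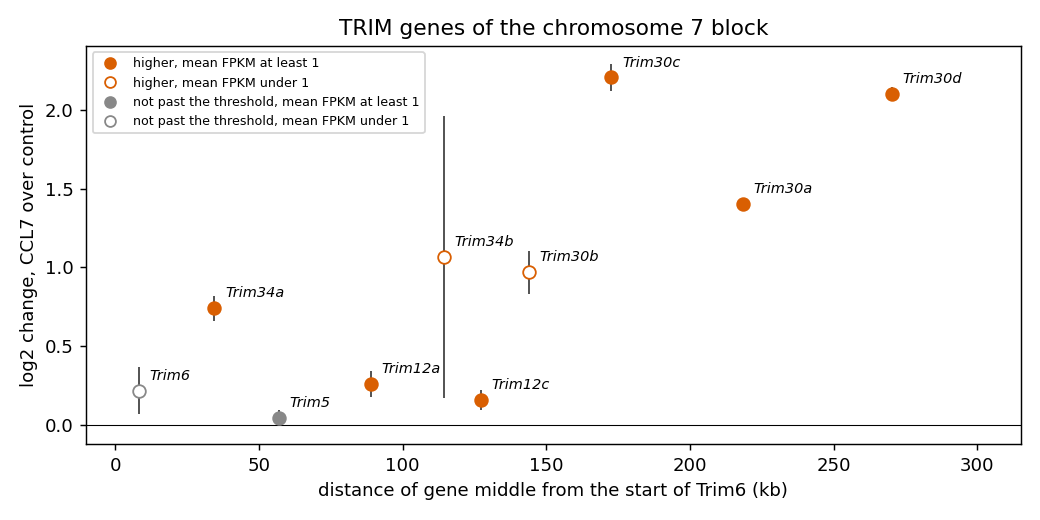
Log2 change of CCL7 over control (vertical axis, bars are SE, n = 3 per group) for the 10 TRIM genes of the chromosome 7 block against the distance of each gene's middle from the start of Trim6 in kb. Filled points had a mean FPKM of at least 1, open points come from the fit without the filter, orange means higher and grey not past the threshold. The Trim30 genes at the right lie highest, and the wide bar of Trim34b comes from 1 library.

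Chromosome 7 held 16 TRIM genes in all, of which 11 were tested, 8 were higher and 2, Trim28 and Trim68, were lower. Chromosome 11 held 9, of which 7 were tested, 6 were lower and Trim25 alone was higher, a call lost with the deposited totals, which gave -0.06. Over all tested genes 33.9% were higher and 35.2% lower, and shares over all genes of each chromosome were not computed. Of the lower genes on chromosome 11, Trim47 and Trim65 overlap in 225 exon bases on the same strand. Neighbours on a chromosome are not independent, and the chromosome 7 counts are largely those of the block.

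Promoter sequence was looked at because many TRIM genes are interferon-inducible, and interferon acts through the interferon-stimulated response element. A RefSeq promoter window (build GRCm38.p6, 250 bases before to 50 after the start) was found for 43 of the 57 genes. The core of that element was searched as GAAANNGAAA on both strands, and 9 of the 43 genes held it in a window. It was in 7 of the 11 tested genes with a window called higher, namely Trim21, Trim34a, Trim12a, Trim12c, Trim30a, Trim30d and Trim26, in 0 of the 9 tested and called lower and in 1 of the 6 tested that did not pass, Trim5. With the members called only in the fit without the filter, it was in 7 of 14 higher and in 0 of 10 lower. Trim30b was among the higher genes without a match, but its only window (104358597 to 104358896) lay inside the gene. The annotated gene spans 104355382 to 104369884 on the minus strand, so the bases before its annotated 5′ end were not searched. With the deposited totals it was in 3 of 6 tested genes called higher, Trim30a, Trim30d and Trim34a, and in 1 of 13 called lower, Trim5. It was held by 3.99% of all 27025 genes with a window and by 3.44% of all 32851 windows. The copies in the chromosome 7 block share sequence, so 5 of these 7 genes are not independent cases. Of the 7, Trim12c and Trim26 lost their calls when control replicate 1 was left out. An NF-kB consensus was in 5 of the 43, 2 of the 11 tested and higher (Trim46 and Trim13) and 1 of the 9 tested and lower (Trim28), beside 9.55% of all genes, and with the members under the filter it was in 2 of 10 lower, Trim28 and Trim43a. Any of the E2F words TTTCCCGC, TTTCGCGC, TTTGGCGC or TTTGCCGC was in 1 of the 43, Trim44, beside 2.60% of all genes. These matches are letters in a window and do not show that a factor bound there.

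The windows below carry that comparison. They are RefSeq sequence on build GRCm38.p6, written 5′ to 3′ along the strand of the gene and ending at the base before its start. Capitals mark the interferon element core, which the windows of Trim30c and Trim59 do not hold. Trim30a and Trim30d show the shared element of a pair of induced copies, and Trim30c a copy whose window lacks it. Trim12c and Trim5 are a pair with the same element, Trim26 is a gene outside the block and Trim59 the gene that fell most.
Trim30a, chr7:104465194-104465343, minus strand: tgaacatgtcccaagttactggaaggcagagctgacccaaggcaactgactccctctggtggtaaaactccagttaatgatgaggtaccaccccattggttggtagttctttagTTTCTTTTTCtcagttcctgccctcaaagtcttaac
Trim30d, chr7:104507850-104507999, minus strand: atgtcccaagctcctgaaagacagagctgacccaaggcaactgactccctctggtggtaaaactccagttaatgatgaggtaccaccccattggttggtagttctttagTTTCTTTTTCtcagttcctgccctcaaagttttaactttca
Trim30c, chr7:104400779-104400928, minus strand: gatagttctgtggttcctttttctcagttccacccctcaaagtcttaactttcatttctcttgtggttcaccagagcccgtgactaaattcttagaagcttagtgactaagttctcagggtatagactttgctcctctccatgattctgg
Trim12c, chr7:104353350-104353499, minus strand: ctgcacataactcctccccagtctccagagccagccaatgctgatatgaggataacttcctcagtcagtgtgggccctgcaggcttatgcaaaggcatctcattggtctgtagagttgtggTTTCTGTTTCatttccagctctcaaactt
Trim5, chr7:104288107-104288256, minus strand: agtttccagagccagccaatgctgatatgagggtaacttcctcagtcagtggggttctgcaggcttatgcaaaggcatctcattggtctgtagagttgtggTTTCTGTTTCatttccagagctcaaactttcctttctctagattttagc
Trim26, chr17:36836946-36837145, plus strand: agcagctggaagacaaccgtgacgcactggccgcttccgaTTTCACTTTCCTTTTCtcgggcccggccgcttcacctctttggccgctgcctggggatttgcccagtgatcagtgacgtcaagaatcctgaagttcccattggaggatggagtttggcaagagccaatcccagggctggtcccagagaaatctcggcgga
Trim59, chr3:69044743-69044892, minus strand: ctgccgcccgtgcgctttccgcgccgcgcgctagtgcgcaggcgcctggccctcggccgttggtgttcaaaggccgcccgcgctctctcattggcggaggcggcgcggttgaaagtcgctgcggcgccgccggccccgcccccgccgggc
In Trim30a and Trim30d the core began at -36 and -41 from the start, with the same letters in both. In Trim30c the closest stretch, TTCCTTTTTC at -137, differed from TTTCNNTTTC by T3C, counted from 1 at its 5′ end, and yet Trim30c had a fold rise in the range of Trim30d. Trim12c and Trim5 held the same letters at -29 and -49, with changes of 0.16 and 0.05. In Trim26 a pair of overlapping matches began at -160 and -154, and its change was 0.15, which turned to -0.09 with the deposited totals. A match in the window thus went with changes of very different size.

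Trim25, the ligase that modifies RIG-I and works with the zinc-finger antiviral protein, had FPKM of 61.2, 59.0 and 56.8 in controls and 59.2, 54.5 and 57.1 with CCL7. These FPKM overlapped between groups, and the TMM log2 change of 0.18 ± 0.04 (adjusted p = 0.00702) was -0.06 with the deposited totals. Trim21, the cytosolic antibody receptor, changed by 0.29 ± 0.06 and Trim26, known to act on IRF3, by 0.15 ± 0.03, and Trim35, known to act on IRF7, by 0.20 ± 0.05. None of these 3 calls held with the deposited totals, which gave 0.05, -0.09 and -0.04. Those of Trim26 and Trim35 were also lost with upper-quartile scaling (adjusted p = 0.214 and 0.0871). Without control replicate 1 Trim26 was not called either (adjusted p = 0.0672). Trim14, an adaptor of MAVS without a RING finger, was at 0.14 ± 0.06 and did not pass (adjusted p = 0.0718), and 29.5% of its 50-base words occurred in Nans on the opposite strand. Trim65, the ligase of the RNA sensor MDA5, fell (-0.36 ± 0.05, adjusted p = 0.00045), and Trim62, the ligase of the adaptor CARD9, fell by 0.53 on the log2 scale (SE 0.08, adjusted p = 0.000378).

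Further SPRY genes fell. Trim47 (ENSMUSG00000020773, chromosome 11, 116105752 to 116127210, minus strand), first described as a gene high in astrocytoma, had FPKM of 17.1, 17.7 and 18.6 in controls and 2.94, 2.94 and 3.13 with CCL7. The groups lay far apart, at -2.33 ± 0.04 (adjusted p = 3.26e-10), or 5.02-fold lower. Its exons overlap those of Trim65 by 225 bases on the same strand, and Trim65 also fell. Trim16 (ENSMUSG00000047821, chromosome 11, 62820231 to 62850808, plus strand), which works with galectin-3 in the autophagy of damaged lysosomes and lacks a RING finger, had FPKM of 7.59, 7.11 and 7.30 in controls and 2.33, 2.56 and 2.55 with CCL7. Its change was -1.33 ± 0.05 (adjusted p = 3.15e-08), 2.51-fold lower, without overlap. Trim68, known as a coactivator of the androgen receptor in human cells, fell from 2.12 ± 0.0883 to 1.01 ± 0.0265 FPKM (-0.84 ± 0.04, adjusted p = 6.07e-05). Trim11, a ligase of the peptide humanin, was called lower at -0.17 ± 0.05 (adjusted p = 0.0200), a call that was lost without control replicate 1 or 2 or CCL7 replicate 3 and without the filter (adjusted p = 0.0898, 0.0634, 0.0746 and 0.198). Trim41 was called lower at -0.11 ± 0.01 (adjusted p = 0.0475), a call that was lost when any single control library or CCL7 replicate 1 or 3 was left out, and with DESeq2.

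The 2 TRIM genes whose proteins carry a transmembrane segment and sit in the endoplasmic reticulum moved in opposite directions. Trim59 (ENSMUSG00000034317, chromosome 3, 69035288 to 69044755, minus strand), reported to bind the signalling adaptor ECSIT, had FPKM of 20.5, 20.5 and 20.8 in controls and 1.72, 1.48 and 1.47 with CCL7. The raw counts were 2448, 3059 and 2426 against 295, 219 and 213. This was the largest change among tested TRIM genes under TMM and deposited totals alike, at -3.48 ± 0.07 (adjusted p = 5.05e-11), or 11.2-fold lower, and -3.72 with the deposited totals. Trim13 (ENSMUSG00000035235, chromosome 14, 61598247 to 61605946, plus strand), a ligase of endoplasmic-reticulum-associated degradation, had FPKM of 5.57, 5.75 and 5.55 in controls and 16.7, 18.9 and 16.5 with CCL7. It changed by 1.86 ± 0.07 (adjusted p = 8.48e-09), 3.64-fold higher, and 14.2% of its 50-base words also occurred in the entry Gm9359.

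The 3 tested genes of the chromatin subgroup were called lower, where 35.2% of all tested genes were lower with TMM. Trim28, the corepressor KAP1 that KRAB zinc-finger proteins recruit to silence retroelements, had FPKM of 52.1, 51.8 and 51 in controls and 35, 34.6 and 33.0 with CCL7. The groups did not overlap, and the change was -0.36 ± 0.03 (adjusted p = 6.41e-05). Trim33, which works with SMAD proteins in TGF-beta signalling, fell by 0.34 on the log2 scale (SE 0.05, adjusted p = 0.000267), from 7.05 ± 0.139 to 4.73 ± 0.284 FPKM. Trim24, a coregulator of nuclear receptors, fell from 2.22 ± 0.144 to 1.20 ± 0.137 FPKM (-0.65 ± 0.11, adjusted p = 0.000129). All 3 were also lower with the deposited totals, where 53.5% of all tested genes were lower. That scaling moves every tested TRIM gene downward, so this is no separate check. Trim66, the related testis gene, had 10 to 26 counts in controls and 8 to 26 with CCL7 and did not pass without the filter (-0.15 ± 0.46, adjusted p = 0.816).

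The single MATH gene was lower, and the COS, fibronectin and SPRY class and the NHL-repeat class each had 2 tested genes, 1 higher and 1 lower. Trim37 (ENSMUSG00000018548, chromosome 11, 87127077 to 87220683, plus strand), that MATH gene, which limits centriole assembly and is mutated in the growth disorder mulibrey nanism, had FPKM of 9.51, 9.95 and 8.86 in controls and 3.46, 3.22 and 3.30 with CCL7. The change was -1.27 ± 0.06 (adjusted p = 2.20e-08), 2.40-fold lower, and every CCL7 library lay below every control. Trim36 (ENSMUSG00000033949, chromosome 18, 46165300 to 46212607, minus strand), known in mouse as a protein of the sperm acrosome, had FPKM of 2.61, 2.56 and 2.73 in controls and 0.959, 0.988 and 1.25 with CCL7. It changed by -1.07 ± 0.12 (adjusted p = 1.21e-05), with CCL7 replicate 3 the highest of its group and still below the controls. Trim46 (ENSMUSG00000042766, chromosome 3, 89234177 to 89246309, minus strand), of the same COS, fibronectin and SPRY class and known from neurons for bundling axonal microtubules, had FPKM of 1.43, 1.36 and 1.32 in controls and 2.73, 2.30 and 2.47 with CCL7. It was 2.16-fold higher (1.11 ± 0.07, adjusted p = 4.64e-06), and 239 of its exon bases overlap Krtcap2 on the opposite strand. Of the NHL-repeat genes, Trim3, a brain protein that binds myosin V, rose from 12.3 ± 0.318 to 15.2 ± 0.730 FPKM (0.54 ± 0.04, adjusted p = 5.21e-06). Trim32, mutated in a human limb-girdle muscular dystrophy, fell from 8.70 ± 0.527 to 5.89 ± 0.0571 FPKM (-0.33 ± 0.05, adjusted p = 0.00102).

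Trim8, reported to destabilise the cytokine inhibitor SOCS1, was called higher by 0.27 ± 0.03 (adjusted p = 0.000632), but at 34.6 ± 0.781 and 35.3 ± 1.30 FPKM it was not called with the deposited totals (0.03). Beside Trim14 and Trim5, the tested genes that did not pass were Trim44 (0.13 ± 0.06), Trim56 (0.12 ± 0.12), Trim27 (-0.01 ± 0.04), Trim39 (-0.10 ± 0.07) and Trim23 (-0.15 ± 0.05). Trim56 acts in STING signalling, Trim23 carries an ARF-like GTPase domain, and Trim39 stabilises the apoptosis modulator MOAP-1. With the deposited totals, Trim44 turned to -0.11 and Trim56 to -0.12, and Trim27, Trim39 and Trim23 were called lower. CCL7 replicate 2 was the low library for Trim56, at 7.53 FPKM beside 9.72 and 9.75, and without it Trim56 was called higher, at 0.22.

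**Figure D3:**
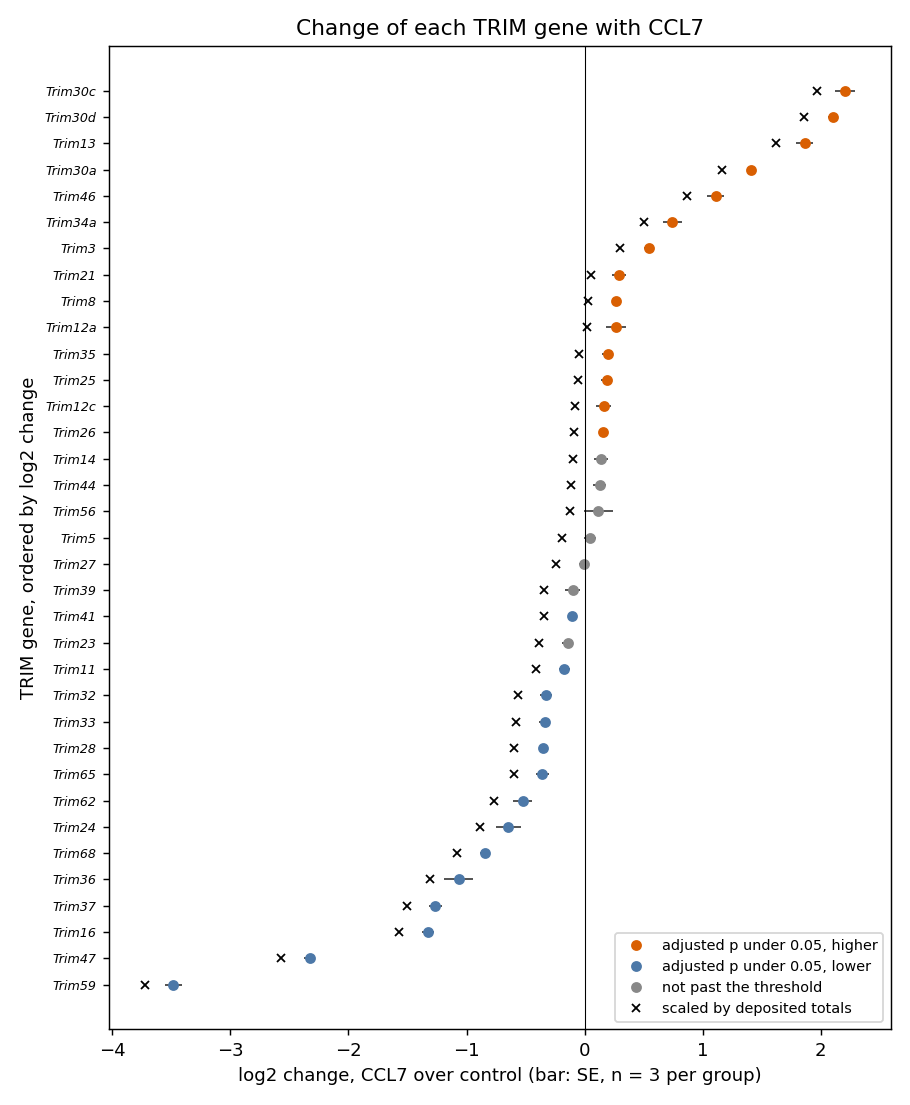
Log2 change of CCL7 over control (horizontal axis, bars are SE, n = 3 per group) for the 35 tested TRIM genes in order of change. Circles are TMM-scaled values, orange for higher, blue for lower and grey for not past the threshold, and crosses are the values with the deposited library totals. The crosses lie to the left of the circles by about the same distance in every gene, so that those from Trim35 down to Trim5 change sign.

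The other 22 genes lay under a mean FPKM of 1. Of these, 14 had at least 10 counts in a library and 8 had fewer in every library. In the fit without the filter 4 were higher (Trim9, Trim29, Trim34b and Trim30b) and 2 lower (Trim17 and Trim43a), while 5.71% of all 14568 genes under that mean were higher and 9.21% lower. Trim29, an epithelial gene also studied in lung macrophages, had 0, 4 and 8 counts in controls and 26, 7 and 21 with CCL7, so the groups overlapped between control replicate 3 and CCL7 replicate 2. Trim9, a neuronal ligase, had 0, 2 and 2 counts against 14, 10 and 4, and Trim17, also known from neurons, had 32, 23 and 21 against 16, 10 and 9. Exons of Trim17 overlap those of Hist3h2a by 708 bases on the same strand, and 17.7% of the 50-base words of Trim17 occurred there. The calls of Trim29, Trim9 and Trim17 depended on settings. That of Trim29 was lost in each limma fit, that of Trim9 there, with a replicate block and without control replicate 1 or CCL7 replicate 1 or 2, and that of Trim17 with DESeq2, after quantile normalization and without control replicate 1 or CCL7 replicate 3. Trim43a, a gene of the preimplantation embryo, had 5, 8 and 6 counts against 2, 0 and 0, and 45.9% of its 50-base words occurred in other genes, mainly Trim43b. The genes that did not pass included Trim2, a neuronal ligase of neurofilament light chain (394, 421 and 389 counts against 451, 290 and 335), and Trim45 (195, 182 and 161 against 169, 140 and 141). With the deposited totals both were called lower, at -0.45 for Trim2 and -0.54 for Trim45, and Trim45 also with limma on log2(FPKM + 1). Trim7, known for binding glycogenin, had 28, 46 and 44 counts against 31, 18 and 44, and Trim43c had 15, 15 and 14 against 19, 12 and 24. Trim15, a focal adhesion protein, had 9, 22 and 15 counts against 14, 13 and 15, Trim38, known to act on TAB2, 4, 4 and 5 against 2, 11 and 2, and Trim69 3, 6 and 6 against 17, 0 and 8. Such counts limit which differences could be detected.

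TRIM proteins whose genes carry another name were examined beside the family. Of 7 such genes, 5 were in the table and 2 were tested, and both rose. Mefv, which encodes pyrin, the TRIM protein that senses inactive RhoA and builds an inflammasome, had FPKM of 3.15, 3.31 and 3.43 in controls and 40.1, 42 and 43.8 with CCL7. Its change of 3.91 ± 0.05 (adjusted p = 1.35e-11) was larger than that of any tested gene with a Trim symbol. Pml, the organiser of nuclear bodies (TRIM19 in the family numbering), had FPKM of 13.6, 14.1 and 13.7 in controls and 17.7, 16.4 and 17.3 with CCL7 (0.55 ± 0.03, adjusted p = 2.85e-06). Mid1, a microtubule-binding ligase, did not pass without the filter (0.34 ± 0.08, adjusted p = 0.0967), and Mid2 had 10 counts over the 3 controls and 6 over the 3 CCL7 libraries.

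The genes that TRIM proteins work with were described by 4 further lists. Of 33 tested genes of nucleic acid sensing and interferon induction, 25 were higher and 5 lower, with a median log2 change of 0.46, beside -0.01 over all genes. These are 75.8% and 15.2%, beside the 33.9% and 35.2% of all tested genes. With the deposited totals the counts were 18 and 8, where the background was 20.5% and 53.5%. The largest rises were in Irf7, the interferon-amplifying factor (4.68 ± 0.11), and Isg15, the ubiquitin-like modifier (4.03 ± 0.15). The largest falls were in Sting1, the adaptor of DNA sensing (-0.50 ± 0.07), and Tab1, a TAK1-binding subunit (-0.39 ± 0.09). Ifnb1, the interferon beta gene, had 2 counts over the 3 libraries of each group. Of 14 tested E2 enzymes that serve RING ligases, 8 were higher and 2 lower, with a median of 0.29. These are 57.1% and 14.3%, beside 33.9% and 35.2% of all tested genes. With the deposited totals 4 were higher and 4 lower, where the background was 20.5% and 53.5%. Ube2l6, the E2 of ISG15 (1.54 ± 0.11), and Ube2e2 (1.47 ± 0.13) rose most, and Ube2d1 (-0.42 ± 0.05) and Ube2b (-0.40 ± 0.05) fell most.

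Of 19 tested partners of the Trim28 corepressor, 3 were higher and 8 lower, which is 15.8% and 42.1% beside 33.9% and 35.2% of all tested genes, with a median of -0.17. The share called in either direction, 57.9%, was below the 69.1% of all genes. With the deposited totals 3 were higher and 16 lower, where 20.5% and 53.5% of all genes were. Uhrf1, which guides maintenance DNA methylation (-1.85 ± 0.10), and Cbx5, which encodes heterochromatin protein 1 alpha (-1.11 ± 0.11), fell most, while Daxx, a histone chaperone (0.65 ± 0.07), and Morc3, a nuclear ATPase (0.55 ± 0.03), rose most. Of 21 autophagy genes that work with TRIM proteins, 8 were higher and 9 lower, with a median of -0.08. With TMM that is 38.1% and 42.9%, near the background of all tested genes. With the deposited totals 5 were higher and 13 lower, where 20.5% and 53.5% of all tested genes were. Nod2, a muramyl dipeptide sensor (2.37 ± 0.09), and Irgm1, an immunity-related GTPase (1.40 ± 0.05), rose most, and the autophagy receptor genes Calcoco1 (-1.02 ± 0.07) and Optn (-1.0 ± 0.07) fell most. Lgals3, which encodes the galectin-3 partner of Trim16, also fell (-0.74 ± 0.04); it was named here for that partnership, with its value already seen.

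**Figure D4:**
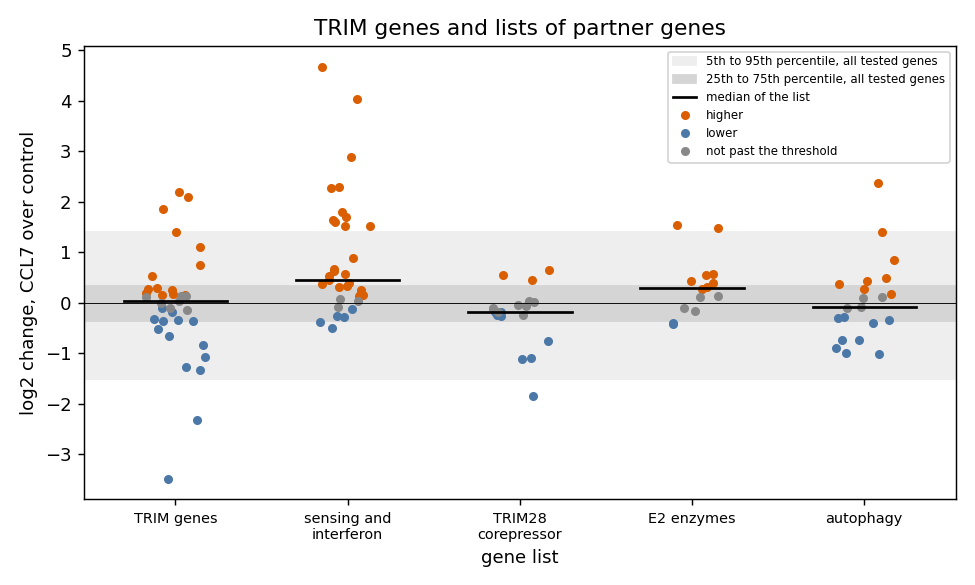
Log2 change of CCL7 over control (vertical axis) for each tested gene (points) of the TRIM family and of 4 lists of partner genes, with the median of each list as a bar; the horizontal scatter within a list has no meaning. The light and dark bands hold the 5th to 95th and the 25th to 75th percentiles of all 11143 tested genes, and the TRIM points spread to both sides of 0 around a median of 0.05.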

How the data were processed

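RNA was measured by sequencing in 6 libraries of mouse macrophages. Raw whole-number counts per gene and FPKM values were deposited by the authors in 1 table. FPKM was checked to be the deposited count divided by gene length and the column total, and the lengths equalled the exon length of GENCODE M21 for 56 of the 57 members (98.2% of all entries found there). Bowtie 0.12.2, mm8 and mm9 appear in the submitters' processing notes, but what each was used for does not. The sources used here name no counting program or strand setting. Gene coordinates are from GENCODE M21, by gene identifier.

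Members and gene lists were chosen with earlier results of these data known. edgeR 4.0.16 (glmQLFit and glmQLFTest, TMM scaling, 2-sided, group as the only term, Benjamini-Hochberg over all genes tested, threshold 0.05) was run in R 4.3.3 on the 11143 genes that averaged at least 1 FPKM. Other members came from a fit to all entries with its own adjustment. The common biological coefficient of variation was 6.81%. Totals of 34860523 to 51161400 counts set the precision.

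Named were tested members past the threshold with an absolute log2 change of at least 1 (every library given), the remaining tested members, members under the filter with at least 10 counts in a library, and from each list the 2 largest rises and falls, with Pml, Mid1, Mid2 and Mefv in any case. Classes follow textbook domains by symbol number. Shared 50-base words were counted over GENCODE M21 transcripts on both strands, and coding sequences were aligned with Biopython 1.88. Samples were grouped by title. Alternatives used DESeq2 1.42.0, limma 3.58.1, other scalings and filters, counts divided by 2 (even numbers made up 66.0% of counts from 1 to 9 and 50.1% of those of at least 100), a replicate block and each library left out. Scripts were tested on simulated data.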

Additional observations from a re-analysis of the deposited data

How the results depend on the processing

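The 10 tested TRIM genes called with at least 2-fold changes kept direction and call under every alternative that gave them a value. The count of members called higher was 7 with the deposited totals and with limma on log2(FPKM + 1) or log2(FPKM + 0.1), and 9 with upper-quartile scaling. That of members called lower was 8 with a mean FPKM of at least 5, where fewer genes are tested. The median log2 change was -0.20 (deposited totals), -0.039 (upper quartile), -0.15 and -0.19 (limma, + 1 and + 0.1), 0.0081 (quantile normalization, chosen after seeing the data), 0.097 (no filter) and 0.083 (mean FPKM of at least 5). Leaving out each library gave 13 to 16 higher, 12 to 14 lower and a median of 0.029 to 0.081. The Trim28 corepressor list had 19 called with the deposited totals and both limma settings, and 8 to 15 when libraries were left out. The limma fits with + 1 and + 0.1 take the deposited FPKM, so they carry the deposited totals and are not separate checks of the scaling. With those totals the median over all tested genes was -0.26. The cause of the moves listed above was not tested.

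Same-numbered libraries did not deviate together (correlations of -0.09, -0.04 and -0.03). This cannot tell whether they came from the same mouse or culture, which the labels do not state. With the replicate block the counts were 13 higher and 13 lower, Trim12c, Trim41, Trim9 and Trim34b lost their calls (adjusted p of 0.0720, 0.110, 0.0656 and 0.102), and Trim38 turned to -0.053.

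Signs of small changes turned as follows. With the deposited totals, limma + 1 and limma + 0.1 in that order, Trim35 was at -0.044, -0.039 and -0.040, Trim25 at -0.056, -0.052 and -0.053, Trim12c at -0.081, -0.073 and -0.078, Trim26 at -0.088, -0.078 and -0.085, Trim14 at -0.10, -0.083 and -0.094, Trim44 at -0.11, -0.10 and -0.11, Trim56 at -0.12, -0.12 and -0.13, Trim5 at -0.20, -0.15 and -0.19, Trim38 at -0.050, -0.0039 and -0.078 and Trim6 at -0.067, -0.019 and -0.061. Trim27 was at 0.0075 with DESeq2's size factors, 0.0074 with its Wald test, 0.014 with quantile normalization and 0.046 without the filter, and Trim5 at -0.039 with upper-quartile scaling. Quantile normalization also gave Trim35 -0.039, Trim25 -0.11, Trim39 0.0081, Trim15 0.013 and Trim66 4.0e-05. When each library was left out in turn, 6 genes changed sign: Trim5 ran over -0.00097 to 0.081, Trim27 over -0.028 to 0.030, Trim15 over -0.33 to 0.12, Trim66 over -0.58 to 0.13, Trim69 over -0.22 to 1.25 and Trim38 over -1.11 to 0.67. Depth limits the members below the filter, 17 of 22 of which had fewer than 50 counts in every library.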
